A study of Bos indicus x Bos taurus with 11 samples.

Results

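Integrins are cell surface receptors built from an alpha and a beta subunit, and laminins are basement membrane proteins built from an alpha, a beta and a gamma chain. The genes described here are the rows of the bovine gene table whose symbols name an integrin subunit or a laminin chain. Rows were matched by symbol alone, with no measured value in the match. The choice of genes and lists was made with earlier results of these data known. The pattern matched 35 of 27398 rows, 24 integrin subunits and 11 laminin chains. A filter on low counts kept 29 of them, 20 integrin subunits and 9 laminin chains, among 16946 genes in all. The other 6 were ITGAD, ITGAM, ITGAX, ITGB6, LAMA1 and LAMC3. ITGAL, ITGB2 and LAMB4 were not analysed here.

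Total RNA, depleted of ribosomal RNA, was sequenced from primary fibroblast cultures grown out of the skin of 11 cattle fetuses at day 105 of gestation, with 1 library per fetus. The LOS group is named for large offspring syndrome, an overgrowth condition of cattle. Its 6 fetuses, 3 females and 3 males, were conceived by assisted reproduction (ART), and each weighed more than the 97th centile of control weights. The 5 control fetuses (CON_B, 2 females and 3 males) were healthy and conceived by artificial insemination. Every fetus of both groups was a first-cross (F1) hybrid of Angus cattle (Bos taurus taurus) with Brahman cattle (Bos taurus indicus), so parent of origin and breed cannot be told apart. LOS status and conception method also cannot be told apart, since fetuses from ART of normal weight were not analysed here.

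Alpha subunits of integrins set which ligand a receptor binds. ITGA1, ITGA2, ITGA10 and ITGA11 make collagen receptors, ITGA3, ITGA6 and ITGA7 make laminin receptors, and ITGA5, ITGA8, ITGAV and ITGA2B make receptors for the Arg-Gly-Asp motif of fibronectin and related proteins. ITGB1 is the beta partner of most of them, while ITGAV also joins ITGB3, ITGB5, ITGB6 and ITGB8. Fibroblasts use these receptors to hold and pull on the matrix, and ITGAV receptors can free transforming growth factor beta from its latent complex. In skin, LAMA3 and LAMB3 belong to the laminin that keratinocytes lay down under themselves as an anchor, and its receptor there is the dimer of ITGA6 and ITGB4.

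None of the 29 members tested passed the test between LOS and control fibroblasts, as did none of 16946 genes (0%). Of the 11 members with enough allelic reads, 5 passed the test of maternal against paternal expression, against 1144 of 5700 genes (20.1%), which had fewer allelic reads at the median (123 against 508 per library). ITGAV, LAMA4 and ITGA6 were higher from the maternal allele, and ITGA1 and LAMB1 from the paternal allele. The allelic shares of these 5 genes did not pass the test between LOS and control.

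Levels are given as CPM, the authors' expected counts per 1000000, on the library size after trimmed mean of M values (TMM) normalisation. CPM are not corrected for gene length, so they compare libraries, not genes. Total counts ran from 12084822 to 19297167 per library. The summed CPM of 10 fibroblast markers was 51998 to 66765 in LOS and 55320.5 to 64496 in controls, and all 10 passed the filter. No defining leukocyte marker passed the filter, and the leukocyte sum was 0.370 to 0.881 CPM in LOS and 0.543 to 1.92 CPM in controls. The keratinocyte sum was 0.106 to 22.2 CPM in LOS and 1.83 to 11.8 CPM in controls, with 3 of 10 markers past the filter.

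In the comparison of LOS with control, 0 of 29 members passed a Benjamini-Hochberg adjusted p of 0.05 in edgeR's quasi-likelihood test, against 0 of 16946 genes (0%). The smallest adjusted p of a member was 0.932. At an unadjusted p under 0.05 there were 0 members, against 752 genes (4.44%). DESeq2 gave 0 members past the adjusted threshold, against 5 genes (0.0295%), and 2 members, ITGAV and ITGB5, at an unadjusted p under 0.05, against 903 genes (5.33%). The log2 fold change, LOS minus control, was above 0 in 17 members and below 0 in 12, and above 0 in 49.8% of all genes tested. With total-count scaling it was above 0 in 14 members and below 0 in 15. Its median over the members was 0.05 with TMM scaling, against -0.00 over all genes tested. In 0 members did the LOS libraries lie wholly apart from the control libraries, which was so for 39 genes (0.23%). In bulk samples, fewer cells of a type and less RNA per cell cannot be told apart.

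**Figure D1:**
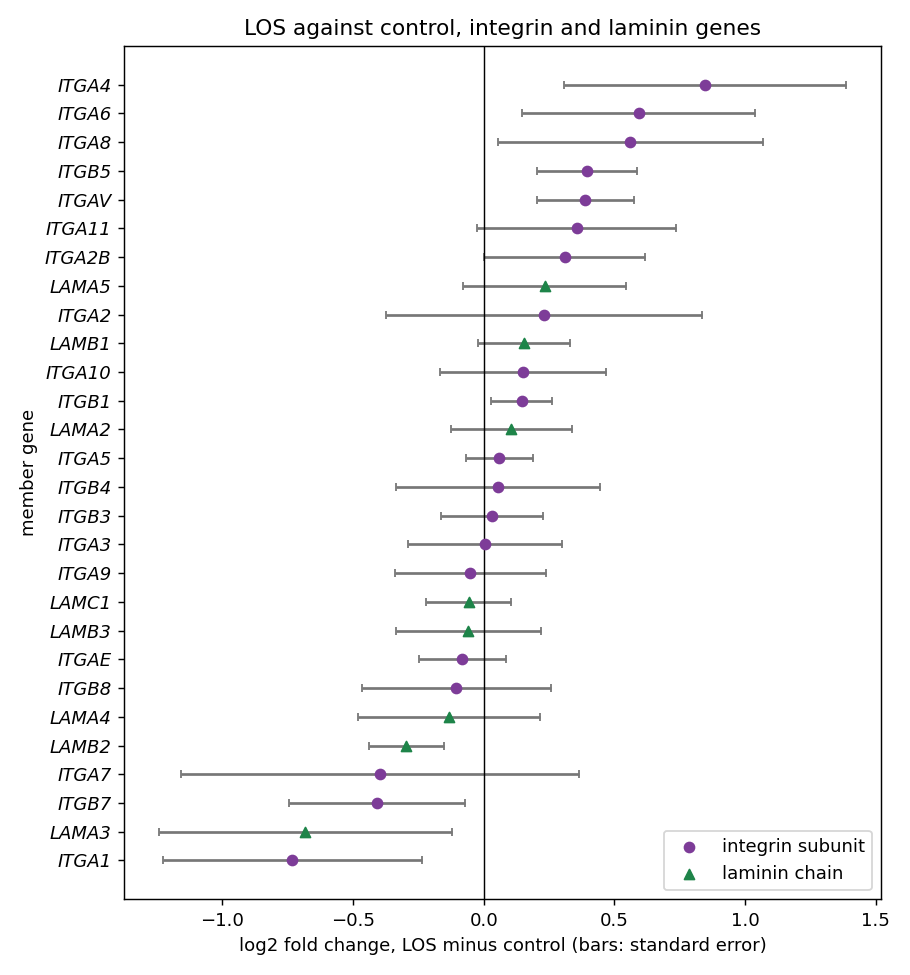
Log2 fold change of LOS minus control (horizontal axis) for members tested, with integrins and laminins in separate colours and standard errors as bars. The estimates shown lie between -0.73 for ITGA1 and 0.85 for ITGA4, and none passed the adjusted test.

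Among the collagen receptor alpha subunits, ITGA1 lies on chromosome 20, 26101731 to 26283399, on the minus strand of build ARS-UCD1.2. It had a lowest value of 41.6, a median of 59.6 and a highest of 212 CPM in LOS, against 108, 77.7, 186, 212 and 74.7 CPM in controls 1 to 5. LOS 1 alone reached the height of the top control, and 5 of 6 LOS libraries lay below the control median. ITGA1 averaged 82.3 ± 64.8 CPM in LOS (SD, n = 6) and 132 ± 63.4 CPM in controls (SD, n = 5), a log2 fold change of -0.73 ± 0.49 (SE). Over the fits that left out 1 library it ran from -1.18 without LOS 1 to -0.51 without control 4, short of the adjusted threshold in each. PELO, a ribosome rescue factor, lies within the span of ITGA1 on the same strand with 35.9 CPM in LOS and 37.6 CPM in control libraries, and how reads were divided between them is not stated in the labels.

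ITGA11, which fibroblasts use to grip fibrillar collagen, was 12.05 to 19.1 CPM in LOS, against 9.66, 11.2, 5.57, 5.85 and 28.6 CPM in controls 1 to 5. All 6 LOS libraries stood above the control median, inside a control range set by control 5. The log2 fold change was 0.36 ± 0.38 (SE), and it ran from 0.17 without control 3 to 0.95 without control 5. ITGA10 (0.15 ± 0.32) and ITGA2 (0.23 ± 0.61) had estimates smaller than their standard errors. ITGA2, the platelet and epithelial collagen receptor, was 1.06 to 3.94 CPM in LOS and 0.494 to 5.09 CPM in controls. MOCS2, on the opposite strand, overlaps ITGA2 and had 23.7 CPM in LOS and 26.0 CPM in controls. Reads of these genes may not be told apart, since the labels do not say whether counting used strand.

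Of the receptors for the Arg-Gly-Asp motif, ITGAV had the smallest p of any member. The gene lies on chromosome 2, 9640552 to 9749535, minus strand. Its CPM was 365 at the lowest, 442 at the median and 615 at the highest in LOS, against 315, 331, 528, 303 and 312 in controls 1 to 5. All LOS libraries exceeded 4 of the controls, and control 3 lay within the LOS range. ITGAV averaged 462 ± 98.6 CPM in LOS (SD, n = 6) and 358 ± 95.9 CPM in controls (SD, n = 5), a log2 fold change of 0.39 ± 0.19 (SE). Over the 11 fits that left out 1 library each it ran from 0.28 to 0.55, and the adjusted test was passed in none.

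ITGB5, the ITGAV partner in the vitronectin receptor of fibroblasts, lies on chromosome 1, 69196890 to 69312146, minus strand. In LOS its lowest CPM was 323, its median 534 and its highest 751, against 317, 497, 453, 391 and 338 in controls 1 to 5. Of the LOS libraries, 5 of 6 were above the control median and LOS 1 was close to the lowest control. The means were 524 ± 144 CPM in LOS (SD, n = 6) and 399 ± 75.9 CPM in controls (SD, n = 5), a log2 fold change of 0.40 ± 0.19 (SE). ITGB3, the other vitronectin receptor partner, had a log2 fold change of 0.03 ± 0.20, with 186, 214 and 375 CPM as lowest, median and highest in LOS and 263, 171, 278, 233 and 195 CPM in controls. The sign for ITGB3 turned with total-count scaling (-0.03). ITGB8 was 2.17 to 7.71 CPM in LOS and 2.81 to 6.997 CPM in controls.

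ITGA5, the fibronectin receptor subunit, and ITGB1, its only beta partner, were the steadiest members. The spread of log2 CPM within groups was 0.20 for each of these genes (SD), against a median of 0.51 over the members tested and 0.28 over all genes tested. ITGB1 was 984, 1095 and 1309 CPM at the lowest, median and highest in LOS, against 1040.1, 838, 1302, 932 and 1010.0 in controls 1 to 5. Controls 2 and 4 lay below every LOS library, and controls 1, 3 and 5 within the LOS range. The log2 fold change of ITGB1 was 0.15 ± 0.12 (SE). ITGA5 was 404, 479.8 and 552 CPM in LOS, against 462, 391, 558, 377 and 491 in controls, with a log2 fold change of 0.06 ± 0.13.

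ITGA8, which pairs with ITGB1 and binds nephronectin in the developing kidney, varied far more. It was 37.3 CPM at the lowest, 80.7 at the median and 272 at the highest in LOS, against 38.4, 54.6, 194, 33.9 and 89.7 CPM in controls 1 to 5. Its top values were in LOS 4 and control 3, 1 fetus of each group. The log2 fold change was 0.56 ± 0.51 (SE), with 0.11 without LOS 4 and 0.97 without control 3. ITGA2B, known from platelets, stayed between 0.529 and 1.51 CPM in LOS and between 0.353 and 1.15 CPM in controls.

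ITGA4, which binds fibronectin and VCAM1, had the largest positive fold change of the members tested. Its CPM was 4.67 at the lowest, 19.8 at the median and 35.6 at the highest in LOS, against 9.66, 8.39, 27.0, 4.72 and 4.73 in controls 1 to 5. LOS 2, 4 and 6 and control 3 were the highest, LOS 5 followed with 14.3, and the groups overlapped. The log2 fold change was 0.85 ± 0.54 (SE), with 0.53 without LOS 2 and 1.44 without control 3. ITGA9, the close relative of ITGA4, had -0.05 ± 0.29.

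Among laminin receptor subunits, ITGA6 was 12.2, 30.3 and 66.0 CPM at the lowest, median and highest in LOS, against 10.1, 27.0, 38.7, 18.2 and 22.1 CPM in controls 1 to 5. LOS 2 and 4 lay well above every control, LOS 6 level with the top control, and LOS 1 and 3 below 4 of the 5. Its log2 fold change was 0.59 ± 0.45 (SE), with 0.21 without LOS 2 and 0.89 without control 2. ITGB4, its keratinocyte partner, was 0.574 to 2.18 CPM in LOS and 0.476 to 1.49 CPM in controls.

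ITGA3 was 30.8 to 62.8 CPM in LOS and 22.8 to 84.2 CPM in controls. ITGA7, the muscle laminin receptor, had 4.43 CPM in LOS 1, and 0.0529 to 1.36 CPM in the other LOS libraries, against 1.49, 2.222, 0.340, 1.18 and 1.41 CPM in controls 1 to 5. Apart from LOS 1, the LOS libraries lay inside or below the control range. ITGA7 had a log2 fold change of -0.39 ± 0.76 (SE), with -1.21 without LOS 1 and -0.092 without LOS 6. Skeletal muscle markers summed to 1.21 to 2.49 CPM in LOS and 1.55 to 2.54 CPM in controls.

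**Figure D2:**
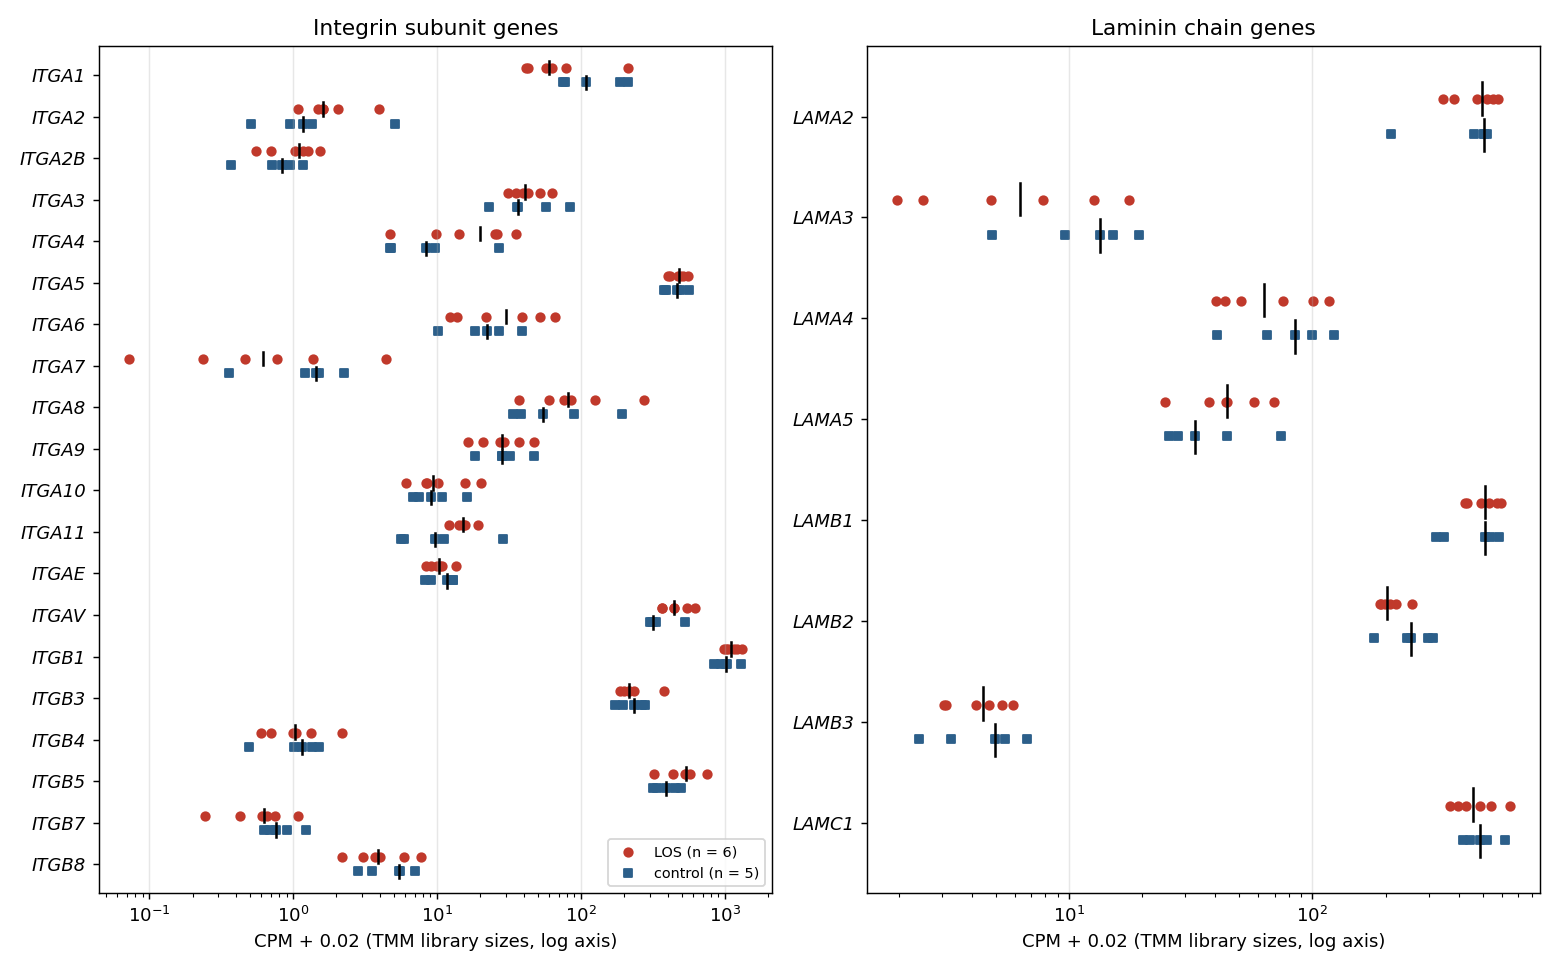
CPM per library, plus a small constant so that 0 can be drawn (log axis), for members tested, integrins left and laminins right. LOS points stand above control points for each gene, and vertical lines mark group medians. ITGB1 and ITGA5 form tight clusters, while ITGA4, ITGA8 and LAMA3 spread widely within both groups.

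Of the leukocyte integrin subunits, only ITGB7 and ITGAE passed the filter. ITGAD and ITGAM had 0 to 2 counts per library, ITGAX 0 to 9, and ITGB6, the epithelial partner of ITGAV, 0 to 1. ITGB7, a lymphocyte homing subunit, had 3 to 18 counts per library. It was 0.226, 0.611 and 1.06 CPM at the lowest, median and highest in LOS, against 0.675, 0.741, 0.611, 0.885 and 1.2 CPM in controls 1 to 5. LOS 1, 3 and 4 lay below every control and the other 3 within the control range, with a log2 fold change of -0.41 ± 0.34 (SE). ITGAE, the lymphocyte subunit that binds E-cadherin, was 8.31 to 13.4 CPM in LOS and 8.26 to 12.9 CPM in controls. HASPIN, a mitotic kinase gene on the opposite strand inside ITGAE, had 18.1 CPM in LOS and 14.5 CPM in controls. The labels do not say whether counting used strand, so reads of these genes may not be told apart.

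Laminin alpha chains differed from each other in spread. LAMA2, the chain of muscle and mesenchymal laminin, was 343, 499 and 578 CPM at the lowest, median and highest in LOS, against 507, 505, 462, 524 and 210.3 CPM in controls 1 to 5. Control 5 was below every other library. The log2 fold change was 0.11 ± 0.23 (SE).

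LAMA3, of the keratinocyte laminin, was 1.96, 6.29 and 17.7 CPM at the lowest, median and highest in LOS, against 15.1, 9.58, 4.82, 19.5 and 13.4 CPM in controls 1 to 5. LOS 3, 4 and 6 lay below every control. Its log2 fold change was -0.68 ± 0.56 (SE), with -1.48 without LOS 5 and -0.43 without control 4. LAMA4, of vessel and mesenchymal basement membranes, was 40.2 to 117 CPM in LOS and 40.7 to 123 CPM in controls. LAMA5, of most epithelial ones, was 24.8 to 69.4 CPM in LOS and 25.8 to 74.3 CPM in controls. LAMA1, the embryonic chain, had 0 to 1 counts per library.

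Of the beta chains, LAMB2 lies on chromosome 22, 50883580 to 50897890, plus strand, and had the smallest p of the members with a fold change below 0. Its CPM was 189.5, 203 and 256 at the lowest, median and highest in LOS, against 245, 299, 179, 314 and 254 in controls 1 to 5. Of the LOS libraries, 5 of 6 lay below all controls except control 3, which was the lowest of all 11. LAMB2 averaged 211 ± 25.0 CPM in LOS (SD, n = 6) and 258 ± 52.8 CPM in controls (SD, n = 5), a log2 fold change of -0.30 ± 0.14 (SE).

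LAMB1, the close relative of LAMB2, was 422, 513 and 597 CPM at the lowest, median and highest in LOS, against 514, 321, 586, 346 and 536 CPM in controls 1 to 5. Controls 2 and 4 were below every LOS library, and these were the controls with the most LAMB2. The log2 fold change of LAMB1 was 0.15 ± 0.18 (SE). LAMB3, of the keratinocyte laminin, was 3.04 to 5.89 CPM in LOS and 2.40 to 6.69 CPM in controls. The keratinocyte keratin KRT17 had 0.575 CPM in LOS 1, 3.99 in LOS 2, 1.96 in control 1 and 3.25 in control 4, and KRT5 was at 0 in 8 of the 11 libraries. CDH1, the epithelial cadherin, was 0.0529 to 21.2 CPM in LOS, highest in LOS 1, and 1.78 to 9.10 CPM in controls, highest in control 3. In LOS 1 CDH1 made up nearly all of the keratinocyte sum. There KRT5, KRT14, KRT15, DSG3 and PKP1 were at 0, while KRT17, DSP (0.328 CPM) and TP63 (0.0821 CPM) were detected. The part of such cells in the LAMA3 and LAMB3 values was not tested.

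LAMC1, the gamma chain of most laminins, was 368, 458 and 648 CPM at the lowest, median and highest in LOS, against 487, 417, 619, 520.3 and 446 CPM in controls 1 to 5. The groups overlapped, with a log2 fold change of -0.06 ± 0.16 (SE) that turned to 0.16 with the replicate number as a block. LAMC3 had 8.95 CPM in LOS 4 and at most 1.16 CPM in every other library.

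Summed over the family, integrin subunits reached 2607 to 3626 CPM in LOS and 2495 to 3693 CPM in controls. Laminin chains summed to 1615 to 2025 CPM in LOS and 1626 to 1998 CPM in controls. Both pairs of ranges overlapped, but control 3 alone (3693 CPM) set the top of the integrin range in controls. Controls 1, 2, 4 and 5 had integrin sums of 2667, 2495, 2627 and 2694 CPM. LOS 3 (2607 CPM) lay among these, while the other LOS libraries (2880 to 3626 CPM) lay above them. Median integrin sums were 3240 CPM for LOS against 2667 CPM for controls. Median laminin sums were 1769 CPM for LOS against 1843 CPM for controls. The sums were not tested between groups.

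The members varied among fetuses of a group more than the middle gene did. ITGA4 (SD of log2 CPM 1.02), ITGA8 (1.00), LAMA3 (0.99) and ITGA7 (0.94) were among those that spread most within groups. LOS 1 held the highest LOS value of ITGA1, ITGA2, ITGA7, ITGB3 and LAMC1, among others, and control 3 the highest control value of ITGA2, ITGA4, ITGA6, ITGA8 and ITGAV, among others.

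**Figure D3:**
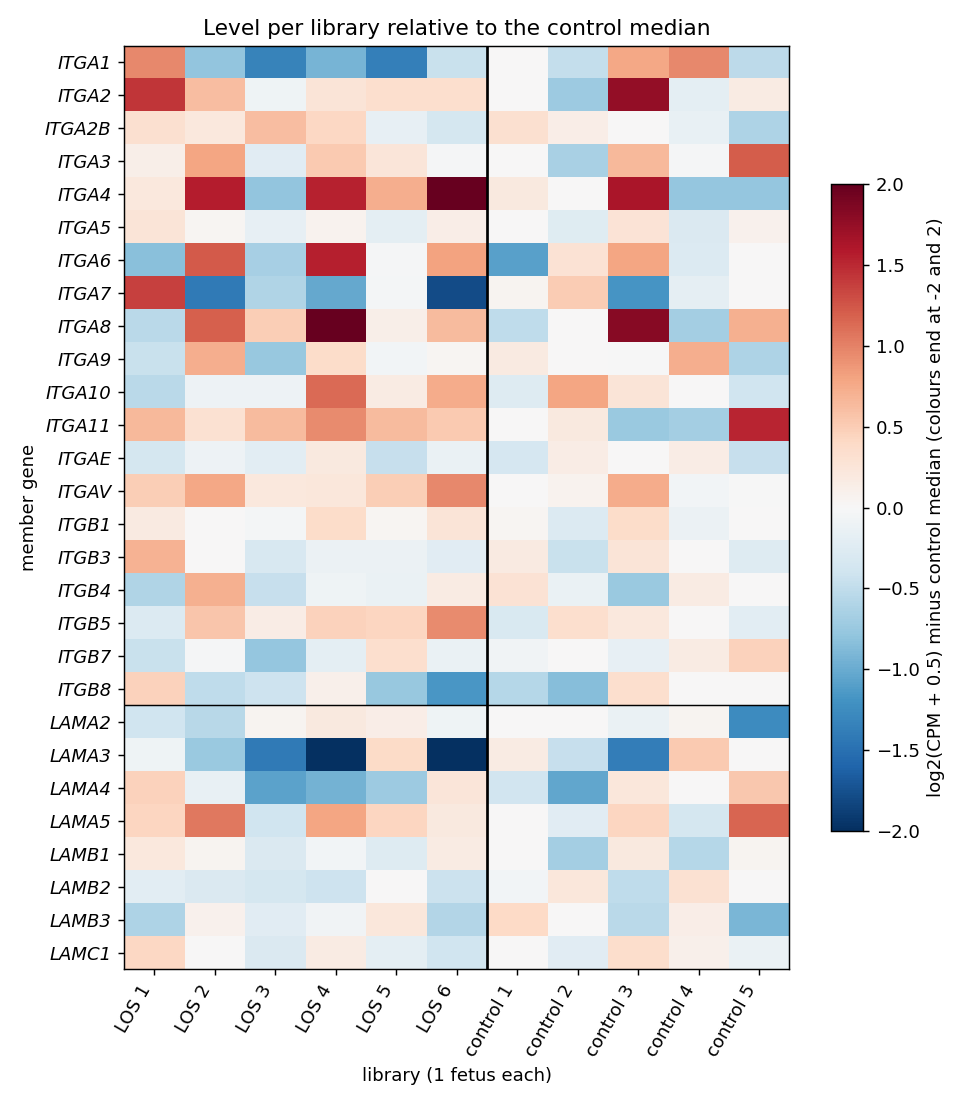
Log2 of CPM plus 0.5 for members tested, minus the control median of that gene (colour, cut at -2 and 2), with LOS libraries left of control libraries. Single libraries such as LOS 1 at ITGA1 and control 3 at ITGA4 stand out more than either group as a whole.

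Across the 11 fetuses, 14 pairs of subunits known to assemble with each other were compared as log2 of CPM plus 0.5. ITGA5 and ITGB1 had the closest relation (Pearson r = 0.79, permutation p = 0.00383, adjusted over the 14 pairs 0.0536), with Spearman rho 0.74 (permutation p = 0.0127, adjusted 0.177). Without controls 2 and 4, the libraries farthest from the median of ITGA5, r was 0.66. ITGAV with ITGB5 had r = 0.66 and rho 0.65 (permutation p = 0.0291 and 0.0375, adjusted 0.180 and 0.262). The value of r was 0.30 without LOS 2 and LOS 6, the libraries farthest from the median of ITGAV. Leaving them out also narrows the range of ITGAV, and the lower r was not tested. ITGA8 with ITGB1 had r = 0.63 and rho 0.53 (permutation p = 0.0385 and 0.0979, adjusted 0.180 and 0.457), and r = 0.13 without LOS 4 and control 3. The other 11 pairs had r between -0.18 and 0.37, and 0 of 14 passed the adjusted threshold. ITGA5 with ITGB1 passed without LOS 1 (permutation p adjusted 0.0452) or without LOS 4 (0.0192), and ITGAV with ITGB5 without LOS 1 (0.0452). Genes of one library share its depth and scaling, and both groups were pooled with no term for group or sex. Within the 6 LOS libraries r was 0.63 for ITGA5 with ITGB1, 0.58 for ITGAV with ITGB5 and 0.44 for ITGA8 with ITGB1.

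**Figure D4:**
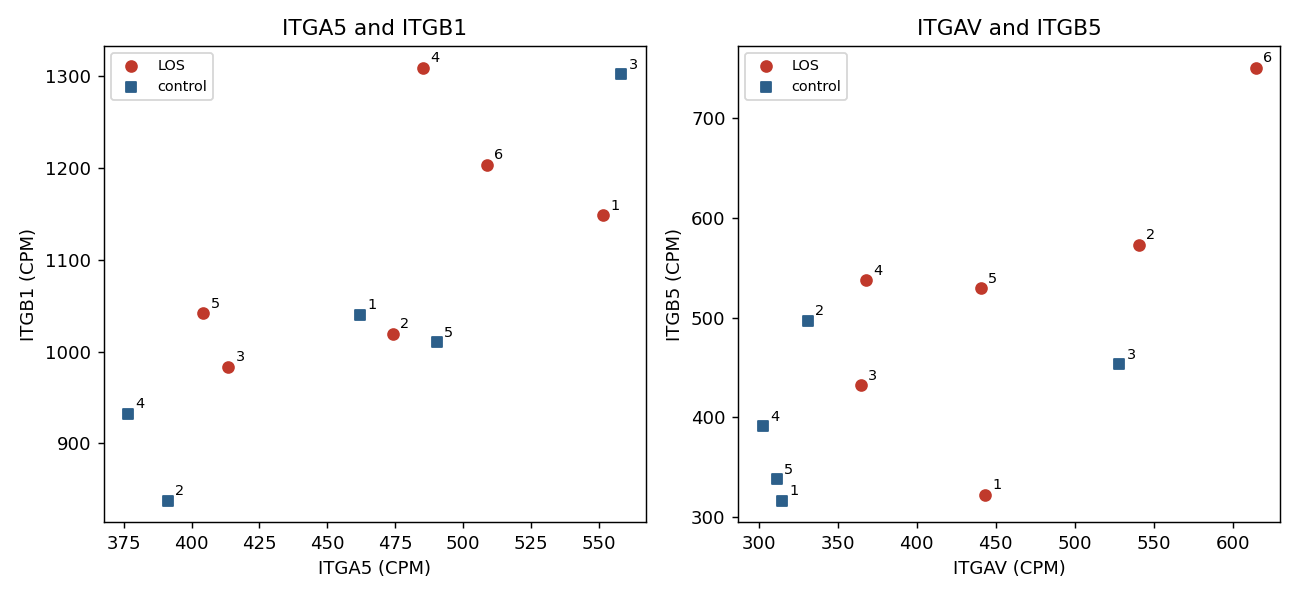
CPM of partner subunits in each library, with LOS and control in separate colours and numbers that name the fetus. The ITGA5 and ITGB1 points lie along 1 trend in both groups, and LOS 2 and LOS 6 lie at the upper right of the ITGAV and ITGB5 points.

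Between male and female fetuses, 0 of 29 members passed the adjusted test, against 8 of 16946 genes (0.0472%), and 0 had an unadjusted p under 0.05, against 560 genes (3.3%). The smallest p were those of ITGA2B, ITGA8 and ITGA7, with log2 fold changes, male minus female, of -0.65 ± 0.31, 0.97 ± 0.51 and -1.26 ± 0.76 (SE). The smallest adjusted p of a member was 0.999 in edgeR's test. The effect of LOS in males minus that in females passed the adjusted test in 0 members, against 0 genes (0%), and had an unadjusted p under 0.05 in 2, against 829 genes (4.89%). These were ITGA10, with a difference of 1.41 ± 0.49 on the log2 scale, and ITGB8, with -1.40 ± 0.59. ITGA10 averaged 15.3 CPM in LOS males and 8.90 CPM in control males, and 7.64 CPM in LOS females and 11.7 CPM in control females. ITGB8 averaged 3.69 CPM in LOS males and 5.99 CPM in control males, and 5.14 CPM in LOS females and 3.16 CPM in control females. With 2 control females, 1 library can set such a mean, and the smallest adjusted p of a member was 0.921 in edgeR's interaction test.

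The authors also gave read counts by parental allele. Of 9716 genes with such counts, 19 were members, and 11 had enough reads to test among 5700 genes. Maternal and paternal reads differed in 5 of the 11 at an adjusted p under 0.05 in edgeR's quasi-likelihood test, against 1144 genes (20.1%). The maternal allele was higher in 3 members, against 565 genes (9.91%), and the paternal allele in 2, against 579 genes (10.2%). The members tested were read more deeply than most genes, with a median of 508 allelic reads per library against 123 over all genes tested and 240.4 over all genes called. The median size of the log2 ratio was 0.26 in the members and 0.15 over all genes tested, whichever allele was higher. The whole libraries were near balance, with 50.5 to 50.9% maternal reads. Whether reads of both alleles mapped equally well at each single gene was not tested.

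ITGA1 had the smallest adjusted p of the members. Its maternal share of allelic reads was 41.8, 39.2, 35.7, 42.6, 42.1 and 41.2% in LOS 1 to 6, against 44.1, 38.0, 46.1, 39.7 and 47.7% in controls 1 to 5. The paternal allele was the higher one in 11 of 11 libraries, on 126 to 1224 reads per library. The log2 ratio of maternal over paternal reads was -0.47 ± 0.06 (SE, edgeR adjusted p = 6.59e-06). ITGA2, its neighbour 20.5 kb away, had 149 allelic reads over all libraries, 47.0% of them maternal, too few to test. MOCS2, which overlaps ITGA2 on the opposite strand, had 2586 allelic reads, 47.8% of them maternal. Allelic reads of ITGA2 and MOCS2 may not be told apart. PELO, inside ITGA1, had no row in the allelic table used here.

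ITGAV leaned to the maternal allele. Its maternal share was 57.7, 54.9, 58.5, 59.4, 61.0 and 55.3% in LOS 1 to 6, against 58.1, 55.4, 53.3, 54.0 and 54.7% in controls 1 to 5. All 11 libraries lay above 50%, on 210 to 1059 reads each. The log2 ratio was 0.37 ± 0.06 (SE, edgeR adjusted p = 7.59e-05). An assembled locus on the same strand overlaps ITGAV, with 46.5 CPM in LOS and 37.9 CPM in control libraries, and its reads may not be fully separate from those of ITGAV.

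LAMB1, on chromosome 4, 48985684 to 49062382, minus strand, leaned to the paternal allele. Its maternal share was 47.1, 43.9, 44.5, 41.9, 47.1 and 48.7% in LOS 1 to 6, against 51.3, 41.6, 40.7, 44.1 and 50.7% in controls 1 to 5. The paternal allele was higher in 9 of 11 libraries, and controls 1 and 5 were near balance. At 2413 to 4549 reads per library, the log2 ratio was -0.26 ± 0.05 (SE, edgeR adjusted p = 0.0013).

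LAMA4 had a maternal share of 57.8 ± 5.74% in LOS (SD, n = 5) and 60.7 ± 6.53% in controls (SD, n = 4), over the libraries with 10 or more reads. The maternal allele was higher in 8 of these 9, all but LOS 1, where it was 20 of 41 reads (48.8%, exact Clopper-Pearson 95% interval from 32.9%). Its log2 ratio was 0.53 ± 0.12 (SE, edgeR adjusted p = 0.00262), on a mean of 116 reads per library.

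ITGA6 had a maternal share of 56.0 ± 2.59% in LOS (SD, n = 6) and 57.6 ± 6.73% in controls (SD, n = 5). The maternal allele was higher in 10 of 11 libraries, with control 2 the exception at 46.4%. Its log2 ratio was 0.36 ± 0.11 (SE, edgeR adjusted p = 0.0269). The call was lost without control 3 (log2 0.34, adjusted p = 0.0644 in edgeR) or without control 5 (log2 0.29, adjusted p = 0.0874). The other 4 genes passed in all 11 fits that left out 1 library.

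**Figure D5:**
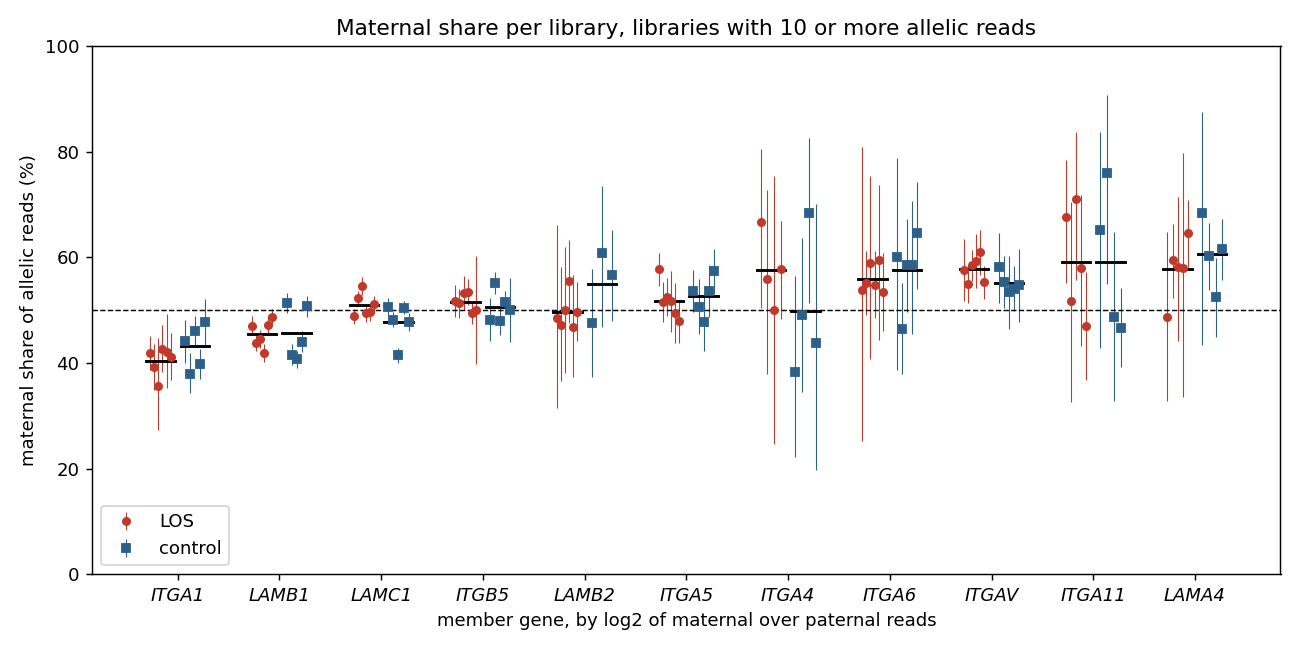
Maternal share of allelic reads (percent) per library for the 11 members tested, LOS points left of control points. Vertical bars are exact 95% intervals of each share, horizontal bars group means, and the dashed line marks 50%. ITGA1 lies below the line in all 11 libraries and ITGAV above it in all 11.

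The 6 members that did not pass had log2 ratios of -0.04 for LAMC1, 0.07 for ITGB5, 0.13 for LAMB2, 0.14 for ITGA5, 0.18 for ITGA4 and 0.38 for ITGA11. LAMC1 was the deepest, with 3418 to 6157 reads per library and 48087 in all, and its ratio of -0.04 had an SE of 0.05. ITGA11 rested on 565 reads in all. The remaining 8 members of the allelic table had too few reads to test.

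The maternal share in LOS against control passed the adjusted test in 0 of 11 members, against 0 of 5700 genes (0%), with the smallest adjusted p of a member at 0.999 in edgeR's test. At an unadjusted p under 0.05 there was 1, LAMC1, against 246 genes (4.32%). LAMC1 had a maternal share of 51.0 ± 2.17% in LOS (SD, n = 6) and 47.7 ± 3.74% in controls (SD, n = 5), with a two-sided exact permutation p of 0.0823. ITGAV had 57.8 ± 2.35% in LOS (SD, n = 6) and 55.1 ± 1.83% in controls (SD, n = 5). Its unadjusted p was 0.217 in edgeR's test, and its two-sided exact permutation p was 0.0649. ITGA1 had 40.4 ± 2.60% in LOS (SD, n = 6) and 43.1 ± 4.15% in controls (SD, n = 5). Its unadjusted p was 0.299 in edgeR's test, and its two-sided exact permutation p was 0.221. These are 3 of 11 such comparisons.

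The genes that work with integrins and laminins were also measured. Of 35 adaptor and signalling genes of integrin adhesions, 33 were tested, 21 had a fold change above 0 and 12 below, with a median of 0.05, and 0 passed in either direction. The smallest p were those of TLN2 (-0.29 ± 0.16), a talin that links integrins to actin, PTK2B (-0.79 ± 0.44), a focal adhesion kinase relative, TNS1 (-0.21 ± 0.12), a tensin, and ZYX (0.29 ± 0.20), a stress fibre protein. Of 23 basement membrane partners and other laminin receptors, 17 were tested, 9 above 0 and 8 below, median 0.04, and 0 passed. AGRN, the laminin-binding proteoglycan agrin, had 1.39 ± 0.39, BCAM, a receptor of LAMA5, 0.67 ± 0.34, DAG1, the dystroglycan that binds LAMA2, -0.17 ± 0.10, and HSPG2, perlecan, 0.37 ± 0.26.

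Of 23 integrin ligands other than laminins, 17 were tested, 11 above 0 and 6 below, median 0.06, and 0 passed. FBLN5, an elastic fibre protein with an Arg-Gly-Asp motif, had 0.34 ± 0.14, TGFB1, whose latent form ITGAV receptors bind, 0.39 ± 0.17, TGFB3 -0.60 ± 0.30, and VCAM1, a ligand of ITGA4, -0.87 ± 0.77. All 14 tetraspanins and membrane partners were tested, 8 above 0 and 6 below, median 0.03, and 0 passed. SLC3A2, an amino acid transporter chain that binds integrin beta tails, had 0.39 ± 0.12, CD47, a partner of ITGAV with ITGB3, -0.22 ± 0.12, CD81, a tetraspanin, -0.30 ± 0.17, and CAV1, caveolin, 0.44 ± 0.28. Each value is a log2 fold change, LOS minus control, with its SE, and none passed the adjusted threshold.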

How the data were processed

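The authors deposited a table of expected counts (estimated reads, not normalised, 71.2% of values whole) per gene. A second table deposited by the authors holds whole read counts per parental allele, per the file headers. The last table, of expected counts multiplied by the allelic share, held 8 of these genes, and 0 of 88 values differed from that product by more than 0.001. The submitters' processing notes name HISAT2 2.1.0, StringTie 2.1.4, Salmon 0.11.1, GATK, edgeR 3.36.0 and build ARS-UCD1.2, among others. What each tool did, whether strand was used and how allelic sites were chosen are not given in these sources.

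Expected counts were rounded and tested with edgeR 4.0.16 (R 4.3.3; TMM, filterByExpr, quasi-likelihood, terms for sex and group) over all 16946 genes that passed the filter, with Benjamini-Hochberg adjustment. SE is the log2 fold change over the square root of F. The allelic model had a term per library, an allele term and its interaction with group. Genes entered it with at least 20 allelic reads per library on average, and at least 10 in 3 or more libraries of each group; X-linked and mitochondrial genes did not enter. Intervals are exact at 95% and cover counting error only. Correlations used 100000 resamples. Alternatives were DESeq2 1.42.0, voom in limma 3.58.1, a replicate block, other scalings and filters, a fit without sex, and leaving out each library in turn. The edgeR test of LOS against control and the edgeR allelic model were also run on simulated data. DESeq2, voom, the sex and interaction terms and the replicate block were not.

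The genes and lists were chosen with earlier results of these data known. All control values, with the LOS values or their lowest, median and highest, are given for the 8 members with the highest CPM and up to 6 per direction with the smallest p in LOS against control, with up to 3 per other test and 4 per other list. Further members are named with ranges to account for the others, and ITGA11 and ITGA7 values were added for the same reason. The counts cover 1 gene that is not reported here. Fetuses are separate animals, and nothing says that cultures were repeated.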

Additional observations from a re-analysis of the deposited data

Results flagged for a closer look

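Within a group, 11 values lay far from the rest by Dixon's criterion at 95%, among 81 groups of values checked, and chance alone marks about 1 in 20 groups. LOS 1 was far above the other LOS libraries at ITGA1 (212 CPM), ITGA2 (3.94 CPM), ITGA7 (4.43 CPM) and ITGB3 (375 CPM). Control 3 was far above the other controls at ITGA2 (5.09 CPM), ITGA4 (27.0 CPM) and ITGAV (528 CPM). Control 5 was far above the other controls at ITGA11 (28.6 CPM) and far below them at LAMA2 (210.3 CPM). LOS 4 stood apart in the maternal share of LAMB2 (55.5%), and LOS 6 in total counts (19297200).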

How the results depend on the processing

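The count of 0 members called between LOS and control, between the sexes and in the interaction was the same under every alternative run for it, as was the 0 for the maternal share in LOS against control. The 5 members with unequal alleles were 5 under DESeq2 and under other read minimums, and 4 without control 3 or control 5. The number of partner pairs past the adjusted threshold was 0, but 1 with RLE scaling, 2 without LOS 1 and 1 without LOS 4. The pair ITGA5 with ITGB1 passed in each of these (adjusted p from 0.0192 to 0.0484). Same-numbered deviations of LOS and control fetuses correlated at -0.20 to 0.29, 2 of 5 best with their own number. Whether replicate numbers pair the fetuses was not tested. With a replicate block 0 members were called.

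Of 577 fold changes of members under 20 alternatives, 534 kept their sign, and 13 members turned at least once. With the block the log2 values were 0.079 for ITGA9, -0.15 for ITGB4, 0.20 for ITGB8 and 0.16 for LAMC1. With total counts and no TMM they were -0.053 for ITGA3, -0.030 for ITGB3 and -0.024 for ITGB4, and with no sex term -0.10 for ITGA3. Total-count scaling left 14 members above 0 and 15 below, beside 17 and 12. Leaving out 1 library gave ranges that crossed 0 for ITGA10 (-0.042 to 0.53), ITGA2 (-0.17 to 0.97), ITGA3 (-0.21 to 0.24), ITGA5 (-9.5e-05 to 0.14), ITGA9 (-0.28 to 0.16), ITGAE (-0.18 to 0.025), ITGB3 (-0.12 to 0.13), ITGB4 (-0.25 to 0.19), ITGB8 (-0.33 to 0.13), LAMA2 (-0.085 to 0.19), LAMA4 (-0.37 to 0.058), LAMB3 (-0.21 to 0.10) and LAMC1 (-0.16 to 0.030). Correlations crossed 0 for ITGA11 with ITGB1 (-0.15 to 0.42), ITGA6 with ITGB4 (-0.038 to 0.44), ITGAV with ITGB8 (-0.39 to 0.18), LAMA2 with LAMC1 (-0.33 to 0.049) and LAMB2 with LAMC1 (-0.39 to 0.054). The causes were not tested. ITGB7 rests on 3 to 18 counts per library, and 8 of the 19 members with allelic reads had too few to test.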
